A study of Mus musculus with 15 samples.

Results

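Described here, across the 3 groups of a gastric bypass study, are the liver levels of 10 genes of the growth hormone and IGF1 system: the receptor gene Ghr, the signalling gene Stat5b, the feedback genes Socs2 and Cish, the hormone gene Igf1, its plasma partner Igfals, and the binding protein genes Igfbp1, Igfbp2, Igfbp3 and Igfbp4. They were taken by symbol from the probe table of the array, and all 10 were found among 22180 genes with a single symbol; where a gene had several transcript clusters (the probe groups that the array reports as 1 value), the brightest of them, by its mean over the 15 arrays, stood for it. The choice used no difference between groups, but it was made with results of these data already known.

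Liver RNA of 15 male mice of the ApoE3L.CETP strain, written in full as ApoE*3Leiden.CETP, was measured on the GeneChip Mouse Gene 2.0 ST, each mouse on its own array. All mice, controls included, carried the transgenes, were 9 to 12 weeks old at the start, were fed 60% fat with 0.25% cholesterol over 6 weeks, were operated on and then housed singly, and were killed 20 days after surgery. Roux-en-Y gastric bypass (RYGB), which joins a small stomach pouch directly to the jejunum, was done in 6 mice. The sham-operated mice were 5 that ate ad libitum (Sham AL) and 4 whose body weight was matched to that of RYGB (BWm). The promoters that drive the transgenes, the time of the last meal and the way weight was matched in BWm are not given in the sources used. The arrays are labelled as biological replicates, and their number limits the precision. Values are log2 signals after the robust multi-array average (RMA), so 1 unit is a doubling.

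In the liver, growth hormone binds its receptor, which activates the kinase JAK2 and through it the transcription factor STAT5B; STAT5B switches on Igf1 and also Socs2 and Cish, whose proteins damp the same pathway. IGF1 leaves the liver and circulates mostly in a large complex with IGFBP3 and the acid-labile subunit encoded by Igfals. IGFBP1 and IGFBP2 carry IGF1 in smaller complexes; in rodents and people, their levels are known to rise on fasting, and insulin represses the Igfbp1 gene through FoxO transcription factors.

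The array of Sham AL replicate 4 stood apart from the others. On it, 662 genes lay over 1 log2 unit away from its group's remaining arrays; the same count was 53 to 128 for every other array. Its mean over 6 adrenal marker genes was 8.88 and over 6 brown fat marker genes 9.24, against 3.37 to 3.45 and 4.07 to 4.63 on the other Sham AL arrays. Calls that changed without this array are given both ways. The mean of 8 hepatocyte markers lay between 11.52 and 11.77 in RYGB, 11.53 and 11.76 in Sham AL and 11.8 and 11.89 in BWm, so all 4 BWm arrays lay above all others. In BWm against Sham AL the median log2 fold change of these markers was 0.15, and 6 of 8 were positive. Of the 8, 1 was called, the urea cycle gene Cps1 (log2 0.44, limma adjusted p = 0.023), beside 2.84% of all genes. The part of hepatocyte content in the differences between BWm and the other groups was not tested. Fewer cells of a type and less RNA per cell cannot be told apart in these pieces of liver.

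Both RYGB and BWm had higher Igfbp1 and Igfbp2 than Sham AL, and BWm also had higher Socs2. In a single limma fit over all genes, with Benjamini-Hochberg adjusted p under 0.05 as the threshold, 2 of 10 genes rose and 0 fell in RYGB against Sham AL, where 1.38% of all genes were called (0.938% higher, 0.442% lower). In BWm against Sham AL, 3 rose and 0 fell, beside 2.84% of all genes called (1.53% higher, 1.3% lower). In RYGB against BWm, 1 of 10, Socs2, was lower and 0 were higher, beside 6.36% of all genes (4.02% higher, 2.34% lower). Without Sham AL replicate 4, Ghr and Igf1 joined Socs2 among the genes called lower in RYGB than in BWm, which made 3 of 10. The other 2 counts stayed at 2 and 3. That array is in neither RYGB nor BWm, so Ghr and Igf1 stayed at log2 -0.58 and -0.39. Only the shared estimate of the spread and the adjustment changed. Over all 15 arrays, at an unadjusted p under 0.05 by limma, the 3 counts were 4, 5 and 7 of 10, beside 12.9%, 15.3% and 18.4% of all genes. The median log2 fold change of the 10 genes was 0.08, 0.44 and -0.34 in the same order, and over all genes 0, -0.01 and 0. Without Sham AL replicate 4 the medians of the 10 genes were 0.02, 0.38 and -0.34. RYGB and BWm are both set against the same 5 Sham AL arrays, so their values are given side by side and not counted as independent.

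**Figure D1:**
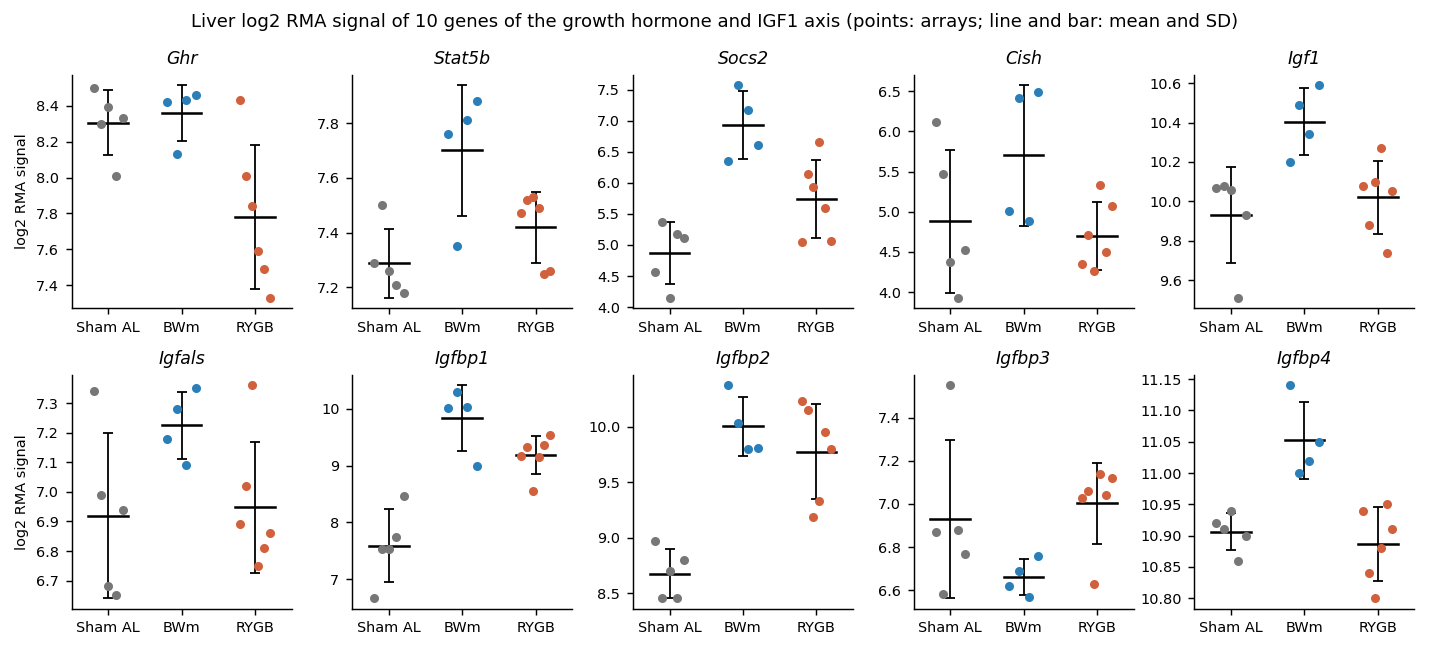
Each panel plots 1 gene, with the log2 RMA signal of every array on the vertical axis (scales differ between panels and do not start at 0) and the 3 groups on the horizontal axis; points are arrays, the line and bar are the group mean and SD. Igfbp1 and Igfbp2 lie higher in both BWm and RYGB than in all Sham AL arrays, and Socs2 lies highest in BWm.

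Ghr (transcript cluster 17315635) encodes the growth hormone receptor. It measured 8.5, 8.3, 8.39, 8.01 and 8.33 in Sham AL and 8.42, 8.13, 8.43 and 8.46 in BWm, and in RYGB it ran from 7.33 over a median of 7.71 to 8.43. The Sham AL and BWm values lay together, while 5 of 6 RYGB arrays lay under every BWm array and 4 of 6 under every Sham AL array. RYGB replicate 1, at 8.43, lay among the sham-operated mice. The log2 fold change was -0.58 ± 0.17 (SE) against BWm (limma adjusted p = 0.053) and -0.52 ± 0.16 against Sham AL (adjusted p = 0.14), so neither difference passed the threshold. Between BWm and Sham AL it was 0.05 ± 0.18, with a 95% interval from -0.32 to 0.43.

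The Ghr result turned on single arrays, on the settings of the fit and on the animals' numbers. Against BWm it was called lower with genes of low level left out (limma adjusted p = 0.025), quantile normalization (0.04), a trended prior (0.043) and a robust prior (0.049), and measured log2 -0.44 with the replicate number as a block (adjusted p = 0.15). Without RYGB replicate 1 it was called lower in both comparisons, at log2 -0.71 (adjusted p = 0.005) against BWm and -0.65 (adjusted p = 0.016) against Sham AL. Without Sham AL replicate 4 it was called against BWm (log2 -0.58, adjusted p = 0.043). The sample descriptions also number the animals, without saying what the numbers mean; 3 RYGB, 1 Sham AL and 0 BWm animals had numbers under 50 and the others above 60. Among animals numbered above 60, Ghr measured 7.47 ± 0.13 (SD, n = 3) in RYGB, 8.26 ± 0.17 (SD, n = 4) in Sham AL and 8.36 ± 0.15 (SD, n = 4) in BWm. Among those under 50 it measured 8.09 ± 0.3 (SD, n = 3) in RYGB and 8.5 in the single Sham AL mouse. With this number range as a covariate the difference was log2 -0.82 against BWm (limma adjusted p = 0.0023) and -0.67 against Sham AL (adjusted p = 0.011). With 1 Sham AL and 0 BWm animals under 50, this covariate rests mostly on the split within RYGB. It therefore cannot separate number range from other differences among the RYGB mice. The 3 RYGB mice numbered above 60, replicates 4 to 6, had means over 6 neutrophil markers of 3.47, 3.9 and 3.52. These lay above the 2.71 to 3.21 of every other array. The 6 markers were dim, with group means from 2.18 to 4.41, beside a median of 4.495 over genes. By mean, 4 of 6 were higher in RYGB than in Sham AL, while Ly6g and Elane were lower (log2 -0.13 and -0.05). Against BWm 5 were higher and Ly6g was lower (log2 -0.33). Of these markers 0 were called by limma in any comparison. At an unadjusted p under 0.05 there were 2 of 6 in RYGB against Sham AL, 1 in RYGB against BWm and 0 in BWm against Sham AL. The shares of all genes at that level were 12.9%, 18.4% and 15.3%. The summed log2 signal of the 6 markers ran from 17.02 to 23.37 in RYGB, 16.44 to 19 in Sham AL and 16.24 to 19.26 in BWm. G6pc, the glucose-6-phosphatase gene, was also lowest in these mice, at 9.4, 8.07 and 8.86, against 10.23 to 10.74 in the other RYGB mice. The parts of animal number and of neutrophils in the Ghr values were not tested further.

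Stat5b (17269695) encodes the transcription factor that carries the growth hormone signal to the nucleus. It measured 7.29, 7.5, 7.26, 7.21 and 7.18 in Sham AL, 7.76, 7.35, 7.81 and 7.88 in BWm, and 7.25 to 7.53 with a median of 7.48 in RYGB. Of the 4 BWm arrays, 3 lay above every Sham AL and RYGB array, and BWm replicate 2 lay among them. The log2 fold change of BWm against Sham AL was 0.41 ± 0.12 (limma adjusted p = 0.074), and that of RYGB against Sham AL 0.13 ± 0.11 (adjusted p = 0.67). The first was called with genes of low level left out (adjusted p = 0.028) and with array medians subtracted (log2 0.47, adjusted p = 0.045). Without BWm replicate 2 the first became 0.53 (adjusted p = 0.026), and RYGB against BWm went from -0.28 (adjusted p = 0.18) to -0.4 (adjusted p = 0.047). Jak2, the kinase bound to the receptor, and Stat5a, the close relative of Stat5b, differed by at most 0.04 log2 units between any 2 group means, with 95% intervals within -0.32 and 0.28.

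Socs2 (17274184) encodes a suppressor of cytokine signalling that is induced by growth hormone and limits its receptor. It measured 4.57, 5.37, 4.15, 5.17 and 5.11 in Sham AL and 6.35, 7.57, 7.17 and 6.61 in BWm, and in RYGB from 5.05 over a median of 5.76 to 6.66. All 4 BWm arrays lay above all Sham AL arrays, and RYGB lay between, overlapping each. A separation of BWm above Sham AL without overlap was seen for 3.46% of all genes. Socs2 was 4.15-fold higher in BWm than in Sham AL (log2 2.05 ± 0.32 SE, limma adjusted p = 0.0023). In RYGB it was 2.28-fold lower than in BWm (log2 -1.19 ± 0.31, adjusted p = 0.027), and against Sham AL it measured log2 0.87 ± 0.29 (adjusted p = 0.18). The call against BWm ended without RYGB replicate 1, 5 or 6, and without BWm replicate 2 or 3 (adjusted p 0.053 to 0.11), and with the animal number covariate (log2 -1.1, adjusted p = 0.078).

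The second Socs2 cluster on the array gave the same order of groups at smaller differences, at 4.36 ± 0.22 (SD, n = 5) in Sham AL, 4.57 ± 0.18 (SD, n = 6) in RYGB and 5.19 ± 0.41 (SD, n = 4) in BWm. With all transcript clusters tested, BWm against Sham AL was called on it (log2 0.83 ± 0.17, limma adjusted p = 0.031), and RYGB against BWm was not (log2 -0.61 ± 0.17, adjusted p = 0.059). In that fit the first cluster's difference between RYGB and BWm was not called either (log2 -1.19, adjusted p = 0.068).

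Cish (17521300), the other feedback inhibitor, varied widely within the sham-operated groups. It measured 6.11, 5.47, 4.37, 3.93 and 4.52 in Sham AL, 5.01, 6.42, 4.88 and 6.49 in BWm, and 4.26 to 5.33 with a median of 4.61 in RYGB. The SD was 0.89 in Sham AL and 0.87 in BWm but 0.42 in RYGB, and 4 of 6 RYGB arrays lay under every BWm array. No comparison passed the test: log2 0.82 ± 0.41 for BWm against Sham AL (limma adjusted p = 0.36), -0.99 ± 0.39 for RYGB against BWm (adjusted p = 0.17) and -0.17 ± 0.37 for RYGB against Sham AL (adjusted p = 0.89). The last turned to log2 0.13 without Sham AL replicate 1, the highest array of that group, and to -0.41 without Sham AL replicate 4, the lowest. The second Cish cluster was not called in any comparison.

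Igf1 (17236288), encodes the growth hormone effector that the liver releases. It measured 10.07, 10.08, 10.06, 9.51 and 9.93 in Sham AL and 10.2, 10.49, 10.34 and 10.59 in BWm, and 9.74 to 10.27 with a median of 10.06 in RYGB. All 4 BWm arrays lay above all Sham AL arrays, and 5 of 6 RYGB arrays lay under every BWm array. Between BWm and Sham AL the log2 fold change was 0.48 ± 0.14 (limma adjusted p = 0.069, 95% interval 0.19 to 0.76), which did not pass the threshold. RYGB differed from BWm by log2 -0.39 ± 0.13 (adjusted p = 0.092) and from Sham AL by 0.09 ± 0.12 (adjusted p = 0.82, 95% interval -0.17 to 0.35).

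The lowest Igf1 value, 9.51, was on the Sham AL array with adrenal and brown fat transcripts. Without that array, BWm against Sham AL was log2 0.37 (limma adjusted p = 0.14), RYGB against Sham AL was -0.01 (adjusted p = 0.98), and RYGB against BWm was called lower (log2 -0.39, adjusted p = 0.044). With genes under a mean log2 level of 5 left out, Igf1 was called in BWm against Sham AL (adjusted p = 0.028) and in RYGB against BWm (adjusted p = 0.041) at the same fold changes, and with a trended prior in BWm against Sham AL (adjusted p = 0.046).

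Igfals (17334468) and Igfbp3 (17260474), which encode the partners of IGF1 in the large plasma complex, did not pass the test in any comparison. Igfals measured 6.92 ± 0.28 (SD, n = 5) in Sham AL, 7.22 ± 0.11 (SD, n = 4) in BWm and 6.95 ± 0.22 (SD, n = 6) in RYGB. It was highest by mean in BWm, as Igf1 was, and 5 of 6 RYGB arrays lay under every BWm array while RYGB replicate 3, at 7.36, lay above them. The difference between RYGB and BWm was log2 -0.28 ± 0.14 (limma adjusted p = 0.31), and -0.46 with the animal number covariate (adjusted p = 0.038). Igfbp3 was the 1 gene of the 10 with a positive difference between RYGB and BWm, at log2 0.34 ± 0.15 (adjusted p = 0.22). Its values were 6.62, 6.69, 6.57 and 6.76 in BWm, and 5 of 6 RYGB arrays lay between 7.03 and 7.14, above all of these, with RYGB replicate 3 at 6.63. Sham AL spanned 6.58 to 7.55 and overlapped both.

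Igfbp4 (17256264), which encodes a binding protein that holds IGF1 away from its receptor, varied least. It measured 10.92, 10.91, 10.94, 10.86 and 10.9 in Sham AL, 11.14, 11, 11.02 and 11.05 in BWm, and 10.8 to 10.95 with a median of 10.9 in RYGB. BWm lay above both other groups without overlap, at a small distance. The log2 fold change was 0.15 ± 0.08 for BWm against Sham AL (limma adjusted p = 0.45) and -0.16 ± 0.08 for RYGB against BWm (adjusted p = 0.29). Groups that do not overlap were found for 6.85% of all genes in the first comparison (3.46% higher, 3.39% lower) and 7.61% in the second (4.71% higher, 2.91% lower).

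Igfbp1 (17247208) encodes the insulin-repressed binding protein and had the largest differences from Sham AL among the 10 genes. It measured 6.67, 7.54, 7.53, 7.75 and 8.47 in Sham AL and 10.02, 10.29, 10.03 and 8.99 in BWm, and in RYGB from 8.55 over a median of 9.25 to 9.53. Every RYGB and BWm array lay above every Sham AL array. Igfbp1 was 4.74-fold higher in BWm than in Sham AL (log2 2.24 ± 0.3 SE, limma adjusted p = 0.00091) and 3.02-fold higher in RYGB than in Sham AL (log2 1.59 ± 0.27, adjusted p = 0.0043). The 95% intervals of these folds were 3.08 to 7.29 and 2.05 to 4.46. RYGB against BWm measured log2 -0.65 ± 0.28 (adjusted p = 0.22, 95% interval -1.25 to -0.05), which was not called. Leaving out any single array kept both calls against Sham AL, with adjusted p values of at most 0.0056 for BWm and 0.016 for RYGB. Among animals numbered above 60, RYGB stood 1.53 log2 units above Sham AL.

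Igfbp2 (17214106), a binding protein gene of the fasted and of the fetal liver, moved alongside. It measured 8.97, 8.46, 8.7, 8.46 and 8.8 in Sham AL and 10.37, 10.03, 9.8 and 9.81 in BWm, and in RYGB from 9.19 over a median of 9.88 to 10.23. Again all RYGB and BWm arrays lay above all Sham AL arrays. The rise was 2.5-fold in BWm (log2 1.32 ± 0.2 SE, limma adjusted p = 0.0018) and 2.14-fold in RYGB (log2 1.1 ± 0.18, adjusted p = 0.0036). RYGB and BWm differed by log2 -0.23 ± 0.19 (adjusted p = 0.61), and the 95% interval ran from -0.63 to 0.18. Both calls against Sham AL held without any single array (adjusted p of at most 0.0095 and 0.016). RYGB and Sham AL did not overlap for 2.39% of all genes (1.58% higher, 0.812% lower), and BWm lay wholly above Sham AL for 3.46%.

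**Figure D2:**
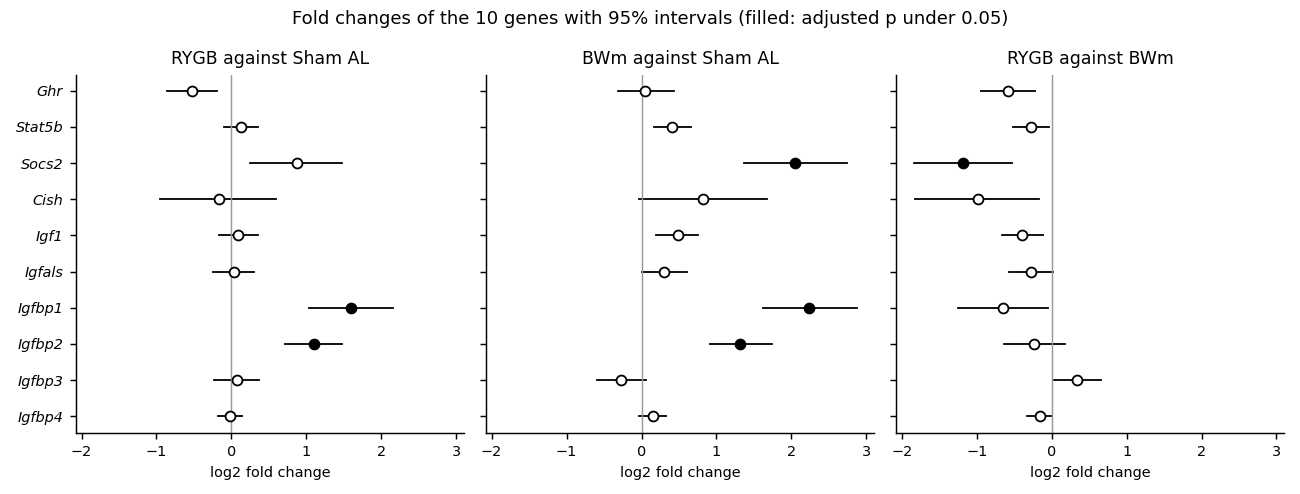
Log2 fold changes of the 10 genes (circles) with their 95% intervals (lines) from the limma fit, in 3 panels for the 3 comparisons; filled circles passed an adjusted p of 0.05. Igfbp1 and Igfbp2 are filled in both comparisons with Sham AL, and Socs2 is filled in BWm against Sham AL and in RYGB against BWm.

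The promoters of Igfbp1 and Igfbp2 are shown because these genes rose together in both comparisons with Sham AL. RefSeq sequences (build GRCm38.p6) were found for 9 of the 10 genes, in 14 windows reaching from 250 bases before to 50 bases after a transcription start. Socs2 had no window, so no motif was searched for in its promoter. Printed are the 250 bases before the start, on the + strand, at chr11:7197537-7197786 for Igfbp1, at chr1:72824230-72824479 for an Igfbp2 start and, for comparison as the hormone gene, at chr10:87860861-87861110 for an Igf1 start; capitals mark a match to CAAAACA, the core of the insulin response element that FoxO proteins are known to bind.
Igfbp1: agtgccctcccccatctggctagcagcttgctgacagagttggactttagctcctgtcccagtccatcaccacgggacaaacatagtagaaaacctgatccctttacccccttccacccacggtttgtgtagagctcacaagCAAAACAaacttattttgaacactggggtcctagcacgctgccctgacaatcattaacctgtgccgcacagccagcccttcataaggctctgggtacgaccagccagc
Igfbp2: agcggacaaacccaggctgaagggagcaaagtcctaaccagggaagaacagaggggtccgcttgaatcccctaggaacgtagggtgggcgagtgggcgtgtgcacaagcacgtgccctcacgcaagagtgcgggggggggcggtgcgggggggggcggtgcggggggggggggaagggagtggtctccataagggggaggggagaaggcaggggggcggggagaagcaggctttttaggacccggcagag
Igf1: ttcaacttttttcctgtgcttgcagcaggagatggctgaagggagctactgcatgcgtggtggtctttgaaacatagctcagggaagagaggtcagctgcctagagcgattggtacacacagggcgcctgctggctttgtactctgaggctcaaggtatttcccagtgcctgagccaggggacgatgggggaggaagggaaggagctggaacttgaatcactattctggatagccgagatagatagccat
The match in Igfbp1 began 108 bases before the start. CAAAACA was found, on either strand, in 6.28% of the 32851 promoter windows of the table, and in no other of the 14 windows of these 9 genes. TTGTTTAC, the other FoxO motif searched, and TGATGCAA, an ATF4 motif, were in none of the 14 windows and in 1.23% and 0.895% of all windows. The STAT5 motif TTCNNNGAA, its own reverse complement, was in 8.3% of all windows. It occurred in Cish as TTCCTGGAA and TTCTTGGAA, starting at bases 1 and 12 after the start, and in Igfals as TTCTCAGAA 236 bases and TTCCTAGAA 58 bases before 2 of its starts. TATAAA, in 13.6% of all windows, was found in Igfbp4 and Ghr. Such matches describe the letters in these windows and do not show that a protein binds there.

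Most other genes of the pathway passed no test. Of 29 further genes of growth hormone receptor signalling and the IGF system measured on the array, 1 rose and 0 fell in RYGB against Sham AL, 2 rose and 0 fell in BWm against Sham AL, and 1 was higher and 2 were lower in RYGB against BWm. Their median log2 fold changes were -0.03, -0.04 and 0.01. Over all genes, the shares called in these comparisons were 1.38% (0.938% higher), 2.84% (1.53% higher) and 6.36% (4.02% higher, 2.34% lower). Igf1r, the IGF1 receptor gene, measured 5.21, 5.06 and 4.93 by mean in Sham AL, BWm and RYGB and passed no test (limma adjusted p of at least 0.6). Its Sham AL mean held replicate 4 at 6.12, against 4.78 to 5.16 on the other Sham AL arrays; without it, RYGB against Sham AL went from log2 -0.28 to -0.05 and BWm against Sham AL from -0.15 to 0.08. Igf2 was at 4.3, 4.2 and 4.2 (adjusted p of at least 0.84). Stat3, which carries signals of interleukin 6 and of growth hormone, was the gene that rose in RYGB against Sham AL (log2 0.37 ± 0.09, adjusted p = 0.042); leaving out any of 12 arrays ended this call, and without Sham AL replicate 4 it reached 0.058.

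The genes that rose in BWm against Sham AL were Irs1 and Irs2, which encode the docking proteins of the insulin and IGF1 receptors. Irs2 measured 6.1, 6.7, 6.6, 7.08 and 6.95 in Sham AL, 8.32, 8.71, 8.59 and 8.03 in BWm, and 6.6 to 7.66 with a median of 7.22 in RYGB. BWm stood above both other groups without overlap, and RYGB overlapped Sham AL. Irs2 rose 3.31-fold in BWm (log2 1.73 ± 0.22, limma adjusted p = 0.00088), measured log2 0.48 ± 0.2 in RYGB against Sham AL (adjusted p = 0.3), and was lower in RYGB than in BWm (log2 -1.25 ± 0.21, adjusted p = 0.0012). Irs1 rose 1.7-fold in BWm (log2 0.76 ± 0.13, adjusted p = 0.0036). The insulin receptor gene Insr was lower in RYGB than in BWm by log2 -0.36 ± 0.1 (adjusted p = 0.035), a call that leaving out any of 7 arrays ended (adjusted p at most 0.091).

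Sirpa, a membrane partner of growth hormone signalling that macrophages also express, was higher in RYGB than in BWm (log2 0.67 ± 0.17, limma adjusted p = 0.021). It was not called without BWm replicate 2 or 3 (adjusted p at most 0.08). Of 8 Kupffer cell markers, all 8 were higher by mean in RYGB than in BWm, 3 at an unadjusted p under 0.05 (Adgre1, C1qa and Csf1r, log2 0.44, 0.52 and 0.4) and 0 after limma's adjustment. Their median was log2 0.19, and their summed log2 signal ran from 60.62 to 64.21 in RYGB and from 57.59 to 64.12 in BWm. Over all genes, 18.4% had an unadjusted p under 0.05 by limma in this comparison. The part of macrophages in the Sirpa value was not tested.

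Genes known to regulate Igfbp1, or to be regulated alongside it, were called most often between RYGB and BWm. Of 15 measured, 3 rose and 0 fell in RYGB against Sham AL, 2 rose and 0 fell in BWm against Sham AL, and 4 were higher and 6 lower in RYGB against BWm (8 lower without Sham AL replicate 4). The shares called over all genes were 1.38%, 2.84% and 6.36% in these comparisons. Foxo1, the insulin-restrained activator of Igfbp1, measured 8.02, 8.01, 8.05, 7.82 and 7.77 in Sham AL, 8.45, 8.65, 8.79 and 8.3 in BWm, and 7.5 to 8 with a median of 7.75 in RYGB. It was higher in BWm than in Sham AL (log2 0.62 ± 0.12, limma adjusted p = 0.011) and lower in RYGB than in BWm (log2 -0.81 ± 0.12, adjusted p = 0.00044), while RYGB and Sham AL overlapped (log2 -0.19 ± 0.11, adjusted p = 0.52). The call for BWm ended without BWm replicate 3 (adjusted p = 0.051). Pck1, the gluconeogenic enzyme gene that FoxO1 also activates, showed the same order, rising by log2 0.59 ± 0.12 in BWm (adjusted p = 0.012) and measuring log2 -0.5 ± 0.12 in RYGB against BWm (adjusted p = 0.012; 0.053 without BWm replicate 1). The other genes called lower in RYGB than in BWm were Ppara (log2 -0.57, adjusted p = 0.0083), G6pc (log2 -1.7, adjusted p = 0.012), Foxo4 (log2 -0.37, adjusted p = 0.022) and Foxa2 (log2 -0.74, adjusted p = 0.049), and Atf4 was called higher (log2 0.42, adjusted p = 0.04). Ppara and G6pc kept their calls without any single array. Foxo4 lost its call without RYGB replicate 2 or BWm replicate 1 or 4 (adjusted p at most 0.069), Foxa2 without any of 11 arrays (at most 0.19) and Atf4 without any of 9 (at most 0.15).

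The 3 genes of this list that rose in RYGB were Trib3, Ddit3 and Fgf21, which are known targets of the stress factor ATF4. Trib3 measured 5.14, 5.37, 6.08, 5.91 and 5.72 in Sham AL, 5.74, 5.02, 6.13 and 5.15 in BWm, and 6.6 to 7.58 with a median of 7.15 in RYGB. All RYGB arrays lay above all others, and the sham-operated groups overlapped. It rose 2.81-fold against Sham AL (log2 1.49 ± 0.22, limma adjusted p = 0.002) and was 3.08-fold higher than in BWm (log2 1.62 ± 0.24, adjusted p = 0.0004). Ddit3 rose 2.64-fold and Fgf21 2.86-fold against Sham AL, with adjusted p = 0.013 and 0.0022. In BWm against Sham AL, Trib3, Ddit3 and Fgf21 measured log2 -0.13 ± 0.25, -0.39 ± 0.3 and 0.15 ± 0.26 and were not called. Igfbp1 was called higher than in Sham AL in both groups. Called higher beside it were Trib3, Ddit3 and Fgf21 in RYGB, and Irs2, Foxo1 and Pck1 in BWm. The groups were not cleanly divided: Irs2 in RYGB, though not called, lay above every Sham AL array in 4 of 6 arrays. Only RNA was measured, and the part of any of these genes in the Igfbp1 values was not tested.

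**Figure D3:**
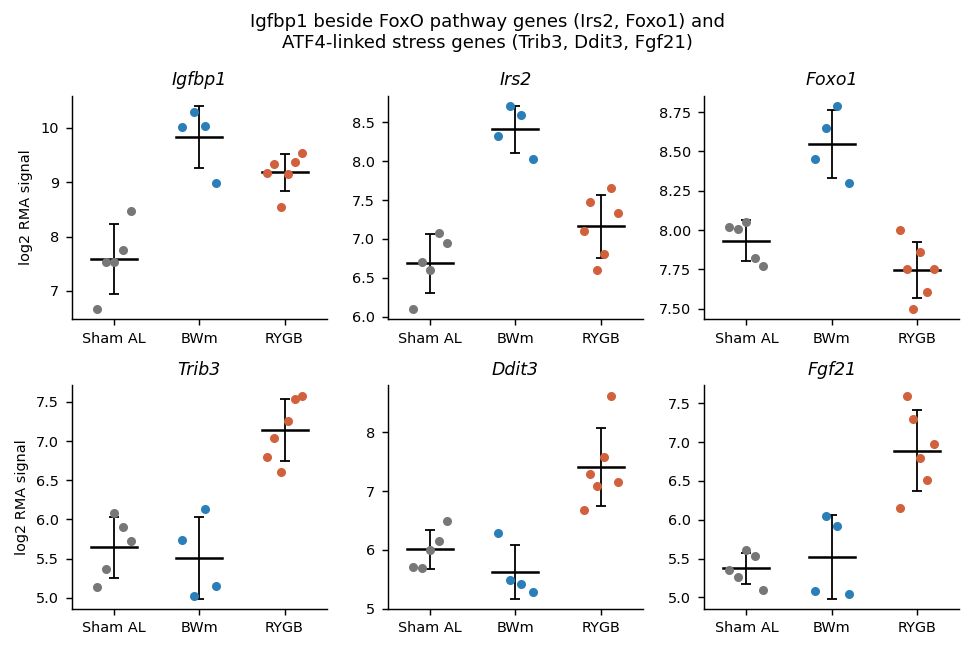
Log2 RMA signal (vertical axes, which differ and do not start at 0) of Igfbp1, of Irs2 and Foxo1, and of Trib3, Ddit3 and Fgf21 in the 3 groups; points are arrays, line and bar are mean and SD. Irs2 and Foxo1 lie highest in BWm, Trib3, Ddit3 and Fgf21 highest in RYGB, and Igfbp1 lies above Sham AL in both groups.

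Liver genes that respond to growth hormone or to its pattern of release were also looked at. The list holds genes with opposite responses to that pattern, so its counts are no single readout of the hormone. Of 11 listed, 0 rose and 3 fell in RYGB against Sham AL (Elovl3, Cyp4a12a and Cyp2d9), and 2 fell without Sham AL replicate 4. In RYGB against BWm 1 was lower, and in BWm against Sham AL 0 were called. Over all genes, 1.38% (0.442% lower), 6.36% (2.34% lower) and 2.84% were called in these 3 comparisons. The median log2 fold change of the 11 genes was -0.91, -0.69 and -0.26 in the same order, and 1, 3 and 5 of them were positive. At an unadjusted p under 0.05 by limma there were 6, 3 and 3, beside 12.9%, 18.4% and 15.3% of all genes. Elovl3, a fatty acid elongase gene, measured 9.52, 9.8, 9.38, 9.76 and 9.25 in Sham AL and 9.8, 8.3, 11.66 and 9.72 in BWm. In RYGB replicates 1 and 2 it measured 9.21 and 8.79, and in the other 4 between 5.13 and 6.05. It measured log2 -2.79 ± 0.67 against Sham AL (limma adjusted p = 0.046, lost without any of 11 arrays, at most 0.12) and was lower than in BWm (log2 -3.12 ± 0.71, adjusted p = 0.012; 0.061 without BWm replicate 3). Hsd3b5, a steroid dehydrogenase gene of the male liver, was at 7.76 and 6.29 in RYGB replicates 1 and 2. It lay between 2.06 and 2.54 in the other 4, against 5.39 to 7.74 in Sham AL, and BWm replicate 2 was at 2.55. With all arrays Hsd3b5 was called in no comparison. RYGB against Sham AL measured log2 -2.7 ± 0.94 (limma adjusted p = 0.2) and RYGB against BWm -0.99 ± 1.01 (adjusted p = 0.69). BWm against Sham AL measured log2 -1.7 ± 1.04 (limma adjusted p = 0.48). In Ghr, RYGB replicates 1 and 2, at 8.43 and 8.01, were also the highest of their group. Replicates 3 to 6 followed at 7.84, 7.59, 7.49 and 7.33, so Ghr fell in steps without such a gap. BWm replicate 2, at 8.13, had the lowest Ghr of its group. Igf1 did not follow the split of Elovl3 and Hsd3b5: RYGB replicates 1 and 2 measured 10.08 and 9.88, inside the range of 9.74 to 10.27 of the other 4. Cux2 and Bcl6, targets of growth hormone with opposite responses to its pattern, were called in no comparison (limma adjusted p of at least 0.71 and 0.62).

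**Figure D4:**
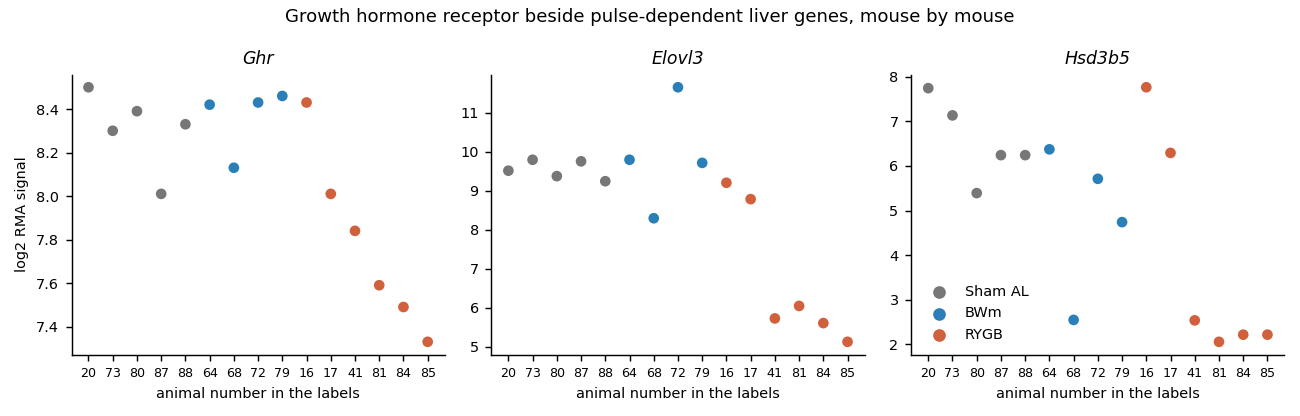
Log2 RMA signal (vertical axis, not from 0) of Ghr, Elovl3 and Hsd3b5 in each mouse, with the animal number of the labels on the horizontal axis and colours for the 3 groups. The RYGB animals numbered 16 and 17 lie near or among the sham-operated mice in all 3 panels. The other 4 RYGB animals lie lower than these, in Ghr without a gap. In Hsd3b5 the BWm animal numbered 68, at 2.55, lies as low as the RYGB animal numbered 41, at 2.54.

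From mouse to mouse within groups, no pair of genes examined passed a test of correlation. For 8 pairs, the values minus their group means were correlated over 15 arrays, with permutation within groups and adjustment over the 8 pairs; none passed. The highest was that of Igfbp1 with Trib3 (Pearson's r = 0.51, permutation p = 0.08, adjusted p = 0.63; Spearman's rho = 0.48, permutation p = 0.089, adjusted p = 0.36), and r was 0.48 without the 2 arrays farthest from the median of Igfbp1. Igf1 and Igfbp1 had r = -0.4 (permutation p = 0.2, adjusted p = 0.63) and rho = -0.59 (permutation p = 0.034, adjusted p = 0.27), with r = -0.3 without the 2 farthest arrays. For Igf1 with Socs2, which respond to the same hormone, r was 0.06 and rho 0.09 (permutation p = 0.84 and 0.77, adjusted p = 0.84 and 0.77), and r was 0.34 without the 2 farthest arrays. Igfbp1 and Igfbp2 had r = 0.24 and rho = 0.18 (permutation p = 0.35 and 0.5, adjusted p = 0.63 and 0.61), and r was 0.55 without the 2 farthest arrays.

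Likeness to other genes was measured as the root mean square difference between 2 genes' log2 values over the 15 arrays, each taken minus its own mean, so it rewards equal size as well as equal shape. Closest to Igfbp1 were Irs2 at 0.55 log2 units and the metallothionein genes Mt1 and Mt2 at 0.57 each, beside a root mean square spread of 1.02 of Igfbp1 itself. Mt1 and Mt2, which encode zinc-binding proteins, rose in both comparisons with Sham AL, by log2 1.31 and 1.6 in RYGB and 1.35 and 1.53 in BWm. Closest to Igfbp2 were the snoRNA host gene Snhg6 at 0.3, the apolipoprotein gene Apom at 0.33 and Plekhg3 at 0.4, beside its own spread of 0.64. Snhg6 rose by log2 1 in RYGB and 0.97 in BWm. Closest to Socs2 were Rab30 at 0.45, the acyl-CoA thioesterase gene Acot4 at 0.49 and the flavin monooxygenase gene Fmo2 at 0.5, beside a spread of 0.94. Each of these was higher in BWm than in Sham AL (log2 1.82, 1.34 and 2.02) and lower in RYGB than in BWm (log2 -1.28, -0.94 and -1.56). For Igf1, with a spread of only 0.26, Abhd15, Slc16a7 and Elk4 lay nearest at 0.12 each.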

How the data were processed

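Liver RNA of 15 mice was measured on 1 array each. Per the series' design text, the authors normalized by RMA; the software, per the submitters' processing notes, was Expression Console 1.4.1.46. The values they deposited are on a log2 scale, for 41345 clusters. Clusters naming more than 1 gene (1814) or no gene (16010) were not used, and no filter on low values was applied, so all 10 genes were tested.

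The 3 comparisons were contrasts in 1 limma fit (limma 3.58.1, R 4.3.3, lmFit and eBayes, default settings) over 15 arrays and 22180 genes, two-sided, with Benjamini-Hochberg adjustment over all genes. Errors of fold changes are standard errors from the moderated variance. Correlations used 100000 permutations within groups. The fit was tested on simulated data. Python 3.11.15 was used for tables and figures.

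Genes named are the 10 and the other listed pathway genes past the threshold (examples are given) with Jak2, Stat5a, Igf1r, Igf2 and Foxo1. Added to these are 4 genes of the growth hormone pattern list and the 3 nearest genes of 4 of the 10. The genes, lists, motifs and tests were chosen with earlier results of these data known. Alternatives were a level filter, 2 other scalings, the mean of clusters, all clusters, 2-group fits, trended and robust priors and array weights. Others were a replicate block, an animal number covariate, the one-way ANOVA that the methods name, and each array left out in turn. The ANOVA was run on the 2 groups compared, with and without Benjamini-Hochberg adjustment, and with a 1.5-fold minimum.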

Additional observations from a re-analysis of the deposited data

Results flagged for a closer look

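In 3 of 30 sets of values (10 genes in 3 groups), 1 array lay far from the rest of its group by Dixon's criterion; chance flags about 1 set in 20. Ghr measured 8.13 in BWm replicate 2, against 8.42 to 8.46 in the other BWm mice, and this mouse also had the lowest Hsd3b5 of its group. Igf1 measured 9.51 in Sham AL replicate 4, against 9.93 to 10.08, on the array with adrenal and brown fat transcripts. Igfbp3 measured 6.63 in RYGB replicate 3, against 7.03 to 7.14 in the other RYGB mice. Their causes were not tested.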

How the results depend on the processing

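The calls of Igfbp1 and Igfbp2 in RYGB and BWm against Sham AL, and of Socs2 in BWm against Sham AL, held in all limma alternatives and without any single array, but the methods' ANOVA after adjustment kept only Igfbp2 in BWm. Over 30 gene comparisons and 28 settings, 796 of 840 values kept their direction and their side of the threshold, 20 newly passed it, 12 no longer passed it and 12 changed sign. Most of the 30 were not called to begin with. The priors, the 2-group fits and the ANOVA cannot change a fold change, so the 796 are no measure of how firm the calls are. In RYGB against Sham AL, 2 to 3 of the 10 genes were called without single arrays. The methods' ANOVA with a 1.5-fold minimum called 3 without adjustment (Igfbp1, Igfbp2 and Socs2, all higher) and 0 after it. In BWm against Sham AL, 5 were called with the level filter (Igf1 and Stat5b added), 4 with the trended prior (Igf1 added) or array medians subtracted (Stat5b added), and 1 by the adjusted ANOVA. In RYGB against BWm, where Socs2 alone was called, 3 were called with the level filter, 2 each with quantile normalization, the trended prior, the robust prior, the animal number covariate and the unadjusted ANOVA, 0 with all clusters tested or the adjusted ANOVA, and 0 to 3 without single arrays. These causes were not tested, except that the level filter tests fewer genes and the full set of clusters more. Leaving out an array of the group not compared changes only the shared estimate of the spread and the adjustment.

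The changes of sign were all of small values that were not called. In RYGB against Sham AL, Igfals, at log2 0.03, became -0.03 with quantile normalization, 0 with array weights, -0.08 with the animal number covariate, and lay between -0.05 and 0.13 without single arrays. Igfbp4, at -0.02, became 0.01 with array medians subtracted and lay between -0.03 and 0 without single arrays. Without single arrays, Igf1 lay between -0.01 and 0.14, Igfbp3 between -0.01 and 0.23, and Cish between -0.41 and 0.13, and in BWm against Sham AL Ghr lay between -0.02 and 0.13.

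No pairing of same-numbered replicates was seen, though this check cannot exclude one. The correlations of their deviations ran from -0.17 to 0.19, and 2 of 15 arrays correlated best with their own number. With the replicate block, 2, 1 and 3 of the 10 genes were called in RYGB against Sham AL, RYGB against BWm and BWm against Sham AL, as without it. Over all genes the counts called were 306, 1411 and 629 in that order, and 174, 903 and 325 with the block, 141 and 349 in the first and last with all clusters tested, 1046 in the last with the level filter, 34, 441 and 52 by the adjusted ANOVA and 857 in the second by the unadjusted ANOVA. Without single arrays they ran from 144 to 398, 930 to 1544 and 284 to 646, the lowest without Sham AL replicate 2, BWm replicate 3 and BWm replicate 2. The deposited values carry no detection call, so no limit on dim genes is given.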
